A study of Homo sapiens with 18 samples.

Results

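The 34 genes described here serve protein folding in the endoplasmic reticulum (ER) and the unfolded protein response. They are a list of named genes out of the 58037 counted: 12 lumenal chaperones and co-chaperones, 4 protein disulfide isomerases, 9 genes of ER-associated degradation, 5 sensors or effectors of the response, 2 CREB3L transcription factors, and SEC61B and SEC24D of ER translocation and export. Every one of the 34 had enough counts to be among the 15185 genes tested. The list was chosen with earlier results of these data known. Its counts beside the shares of all genes are therefore a description and not independent evidence. The RNA was from LNCaP, a human prostate cancer cell line that responds to androgen, seeded in androgen-poor medium (9% charcoal-stripped serum). The cells received a pool of siRNAs against E2F1, against E2F2 or against no target (control siRNA), and then ethanol vehicle or 0.1 nM of R1881, a synthetic androgen, until harvest after 48 h. This gave 6 groups of 3 replicates, so 18 libraries: control, E2F1 and E2F2 siRNA, each with vehicle and each with R1881. All were 1 cell line and all went through transfection, and each target was lowered with 1 pool, so effects of a pool other than on its target cannot be told apart from effects of the target.

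Secreted and membrane proteins enter the ER through the SEC61 channel, fold there with the help of chaperones and disulfide isomerases, and leave in COPII-coated vesicles. Unfolded protein is sensed by IRE1 (encoded by ERN1), PERK (EIF2AK3) and ATF6. IRE1 splices XBP1 mRNA, ATF6 is cut to release a transcription factor, and PERK phosphorylates a translation factor, a step that PPP1R15A helps to reverse. The factors made by these branches raise chaperone and degradation genes through promoter elements, and proteins that fail to fold are sent back to the cytosol for degradation. Prostate luminal cells are secretory, and CREB3L4 is known as a gene that androgen induces in them. Gene counts do not separate spliced from unspliced XBP1 mRNA, nor do they record the cutting of ATF6 or the phosphorylation by PERK.

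Libraries held 10930204 to 14819879 counts. E2F1 siRNA left E2F1 at 13.0% of control with R1881 and 18.4% with vehicle. E2F2 was scarce, with 21 to 53 counts per library with control siRNA and 0 to 5 with E2F2 siRNA, so the share left is not precise. E2F2 siRNA also left E2F1 at 32.5% of control with R1881 and 33.7% with vehicle, and E2F1 siRNA left E2F2 at 43.0% with R1881 (adjusted p = 0.0586) and 81.5% with vehicle (adjusted p = 0.817). The 9 luminal prostate markers checked were present in all 18 libraries. Levels are given as CPM, the counts scaled by library size. Of 12 markers of other cell types, PTPRC, CD3E, COL1A2, PECAM1, KRT5, TP63 and CHGA had at most 2 counts in any library (CD3E and CHGA none), while COL1A1, VWF, ACTA2, VIM and KRT14 were detected. Replicate 3 differed from replicates 1 and 2 in every group: chi-square over its degrees of freedom, across genes, was 1.79 to 4.42 between replicates 1 and 2 and 7.98 to 92.5 for pairs with replicate 3, and the deviations of replicate 3 correlated across genes with GC content (r of 0.51 to 0.84 over 13657 genes, which are not independent). Each count of members called in a comparison is given also with replicates 1 and 2 only.

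Part of the list carries known elements of the response in its promoters, and several members are textbook targets of them, so the counts are a description. The ER stress response element (ERSE), a CCAAT box and CCACG set 9 bases apart, is where ATF6 and XBP1 bind together with NF-Y. ERSE-II is ATTGGNCCACG. Both strands were searched over 250 bases before to 50 after the RefSeq transcription start, for the 30 members with an entry in the RefSeq promoter table (GRCh38.p14). A gene with several starts was counted once, if any of its promoters held a match. ERSE was found in 7 of 30 (23.3%), against 25 of 27305 genes in that table (0.0916%), and ERSE-II in 3 of 30 (10.0%) against 19 (0.0696%). PDIA3, DERL1, DERL3 and SEC24D were not in the table. The 12 matches in 10 genes are printed 5′ to 3′ on the strand of the gene, with 5 bases to either side (coordinates span these too, on GRCh38.p14), because they show which members carry an element and how their letters vary. HSPA5, PDIA6, XBP1 and HYOU1 lie on the minus strand and the others on the plus strand. Capitals mark the fixed letters of the motifs, and matches on the opposite strand start with CGTGG.
HSPA5 ERSE, chr9:125241386-125241414: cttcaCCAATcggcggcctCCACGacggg
HSP90B1 ERSE, chr12:103930211-103930239: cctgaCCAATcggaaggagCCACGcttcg
HSP90B1 ERSE, chr12:103930316-103930344: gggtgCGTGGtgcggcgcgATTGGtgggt
CALR ERSE, chr19:12938379-12938407: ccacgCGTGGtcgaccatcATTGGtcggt
CANX ERSE, chr5:179698773-179698801: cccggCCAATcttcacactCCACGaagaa
CRELD2 ERSE, chr22:49918549-49918577: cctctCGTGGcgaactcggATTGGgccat
PDIA6 ERSE, chr2:10812848-10812876: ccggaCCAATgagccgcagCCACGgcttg
XBP1 ERSE, chr22:28800598-28800626: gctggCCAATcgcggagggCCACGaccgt
HERPUD1 ERSE-II, chr16:56932020-56932040: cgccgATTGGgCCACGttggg
SDF2L1 ERSE-II, chr22:21642109-21642129: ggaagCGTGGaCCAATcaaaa
HYOU1 ERSE-II, chr11:119057375-119057395: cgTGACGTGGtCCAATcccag
HYOU1 ERSE-II, chr11:119057269-119057289: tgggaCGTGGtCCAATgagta

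HSPA5, HSP90B1, CALR, CANX, CRELD2, PDIA6 and XBP1 hold ERSE, and HERPUD1, SDF2L1 and HYOU1 hold ERSE-II. HSP90B1 and HYOU1 hold 2 exact copies each. In GENCODE 29, the matches of HSPA5, CALR, XBP1, HERPUD1, SDF2L1 and HYOU1 lie upstream of the annotated gene, those of HSP90B1 and CANX in an exon of an annotated transcript, and those of CRELD2 and PDIA6 in an intron. The first HYOU1 window has further capitals because the core of the UPR element, TGACGTGG, overlaps its ERSE-II. That core was in HYOU1 and DNAJC10 (6.67%, against 0.927% of all genes in the table), and the CRE core TGACGTCA was in PPP1R15A and CREB3L2 (6.67%, against 2.25%). A match describes the letters only, and no match in the other 20 promoters says nothing of the factors. Only exact matches were searched, so elements with differing letters, in HSPA5 or elsewhere, were not counted. HSPA5, which encodes BiP, the main Hsp70 of the ER, is the textbook gene of this element, so its 250 bases before the start are printed in full (GRCh38.p14 chr9:125241344-125241593, minus strand, 62.0% GC), with ERSE in capitals.
HSPA5 promoter: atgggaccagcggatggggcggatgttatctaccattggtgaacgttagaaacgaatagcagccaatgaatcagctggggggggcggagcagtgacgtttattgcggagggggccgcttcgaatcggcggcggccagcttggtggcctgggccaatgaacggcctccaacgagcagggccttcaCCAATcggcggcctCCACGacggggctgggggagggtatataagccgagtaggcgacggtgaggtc

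**Figure D1:**
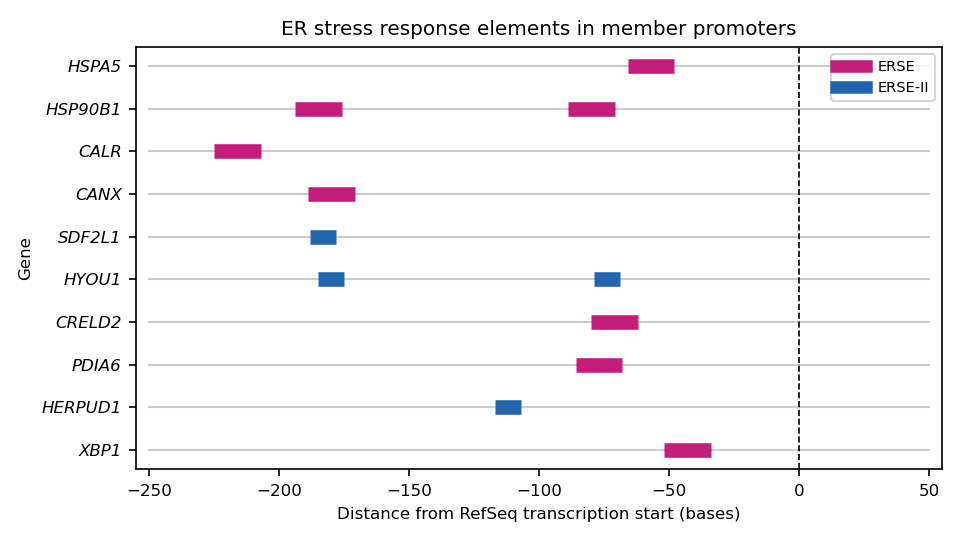
Positions of ERSE (pink) and ERSE-II (blue) matches in the promoters of 10 genes, by distance in bases from the RefSeq transcription start (dashed line, 0), with the window searched in grey. The matches drawn lie from 225 to 34 bases before a start. CANX, which has 4 starts in the table, is drawn against the start 189 bases after the first base of its match, and the same match spans another of its starts.

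Levels spanned a wide range, on the scale of CPM per kilobase of annotated exon in control siRNA with vehicle (mean ± SD, n = 3). The calcium-binding chaperone gene CALR was highest at 628 ± 91.3, followed by HSPA5 at 191 ± 23.3, P4HB at 166 ± 33.6 and HSP90B1, the ER Hsp90, at 160.2 ± 51.6. HSPA5, P4HB and HSP90B1 did not differ beyond their spread. Next came PDIA3 at 126 ± 20.7, CANX at 94.6 ± 20.0 and PDIA4 at 82.0 ± 8.70. The sensors were lower, with EIF2AK3 at 9.23 ± 2.22, ATF6 at 8.76 ± 1.85 and ERN1 at 3.67 ± 0.395, the first 2 not separated by their spread. PPP1R15A (1.70 ± 0.625) and DERL3 (0.128 ± 0.0415) were lowest. DERL3 rests on 138 counts over the 18 libraries, against 409229 for CALR. Each level is divided by the union of all annotated exons of the gene, so the order depends on that annotation. For DNAJC10, at 2.90 ± 1.55, that length is 21835 bases. In CPM, without the length, P4HB stood at 881 ± 178, HSP90B1 at 752 ± 242 and HSPA5 at 748 ± 91.1.

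As a share of all counts, the 34 genes took 0.757 ± 0.0217% (SD, n = 3) with control siRNA and vehicle and 0.924 ± 0.00836% with R1881. With E2F1 siRNA the shares were 0.794 ± 0.0175% and 1.10 ± 0.00767%, and with E2F2 siRNA 0.705 ± 0.0113% and 0.996 ± 0.0355%. In each pool the 3 libraries with R1881 lay above the 3 with vehicle. Values are relative to each library's total, so fewer cells and less RNA per cell cannot be told apart.

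**Figure D2:**
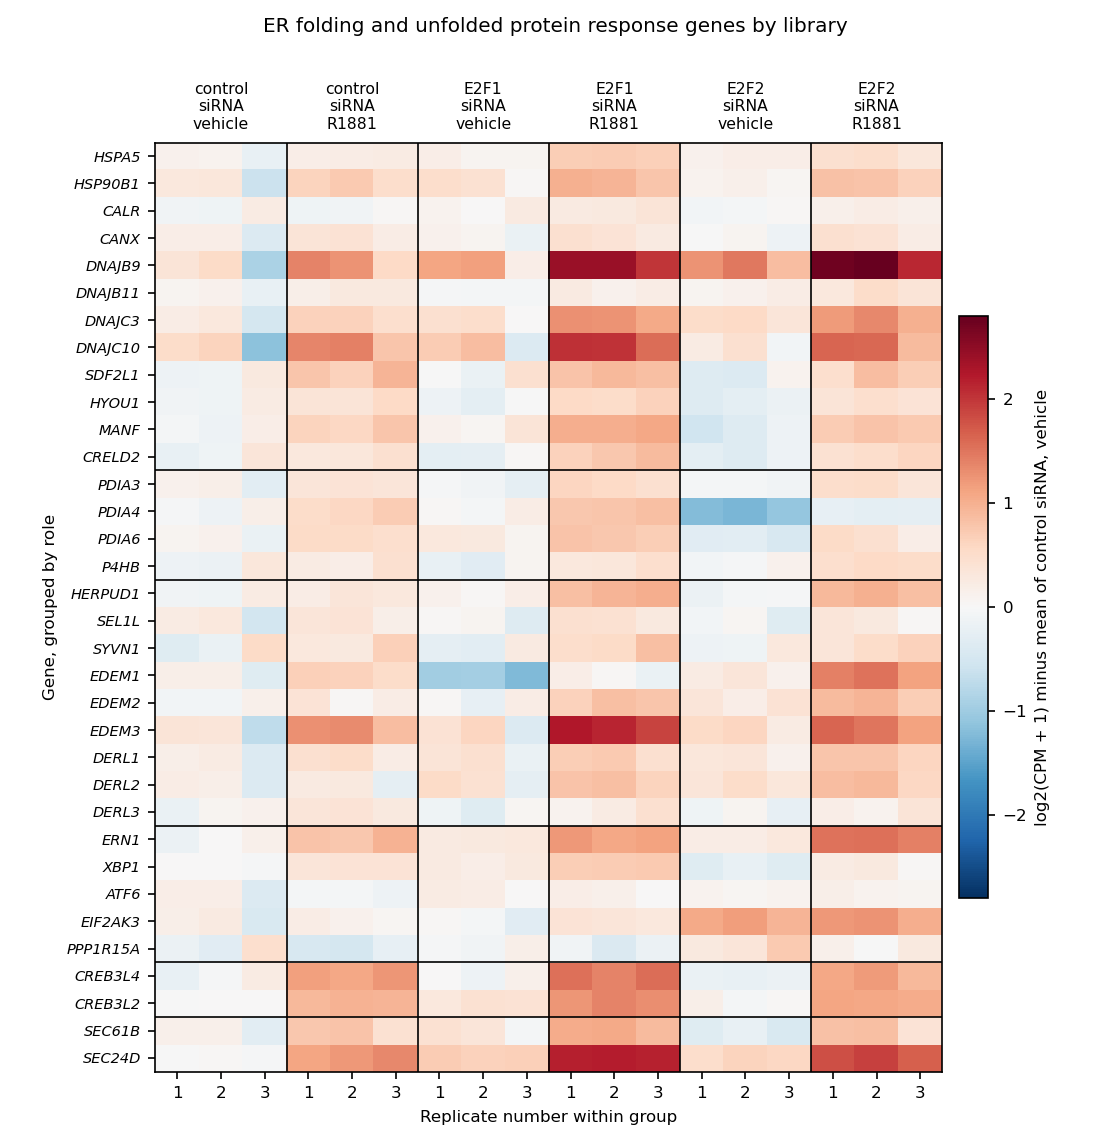
Each row is a gene and each column a library, in 6 groups of 3 replicates; colour is log2(CPM + 1) minus the mean of control siRNA with vehicle, and lines part the groups and the roles. Most genes are redder with R1881 than with vehicle in each siRNA pool, EDEM1 is blue with E2F1 siRNA and vehicle, and PDIA4 is blue with E2F2 siRNA.

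R1881 raised much of the ER folding machinery with each pool. With control siRNA 18 of 34 genes rose and none fell (edgeR quasi-likelihood test, Benjamini-Hochberg adjusted p under 0.05), while 13.8% of all genes tested rose and 13.2% fell. With E2F1 siRNA 25 rose and none fell, against 10.1% and 9.75% of all genes, and with E2F2 siRNA 23 rose and none fell, against 11.8% and 11.0%. The 18 that rose with control siRNA were the 18 that rose with every pool, and 31 of 34 had a positive log2 change in all 3. These comparisons share no library, but they come from the same fit with a shared estimate of each gene's spread, so they are not independent repeats. Median log2 changes were 0.40, 0.72 and 0.69 with control, E2F1 and E2F2 siRNA, against 0.00, -0.01 and -0.01 over all genes. CALR, CANX, DNAJB11, SEL1L, DERL1, DERL2, DERL3, ATF6 and PPP1R15A rose in none of the 3. The luminal markers, several of them androgen-induced genes, moved with these results: their summed level was 4782 to 4889 CPM with control siRNA and vehicle and 6860 to 7373 with R1881, 4557 to 4656 and 8602 to 9109 with E2F1 siRNA, and 4620 to 4840 and 7580 to 8321 with E2F2 siRNA. Their part in the result was not tested.

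With replicates 1 and 2 only, 26 (25 higher, 1 lower), 31 and 30 members (all higher) passed with control, E2F1 and E2F2 siRNA. All 18, 25 and 23 calls remained. In that setting many more of all 15185 genes passed too, 7205, 5815 and 6901. With control siRNA 8 members passed in a fit to the compared groups only and 11 with a 1.5-fold minimum. Of the 15185 genes 1882 and 2612 passed in those settings, against 4105 in the main fit. With the replicate number as a block, 28 passed with control siRNA (27 higher, 1 lower), the 10 added being, with the blocked log2 change and adjusted p, HSPA5 (0.21, 0.0185), CANX (0.32, 0.00228), DNAJB11 (0.24, 0.0352), DNAJC10 (1.13, 1.91e-04), CRELD2 (0.35, 0.00187), P4HB (0.29, 0.00715), SEL1L (0.29, 0.0233), SYVN1 (0.41, 0.00310), DERL1 (0.38, 0.00215) and PPP1R15A (-0.51, 0.0184). With E2F1 siRNA the block added CALR (0.18, 0.0405), CANX (0.37, 9.30e-04), DNAJB11 (0.25, 0.0393), SEL1L (0.46, 0.00142), DERL1 (0.42, 0.00126) and DERL2 (0.52, 0.00193), and with E2F2 siRNA CALR (0.19, 0.0250), CANX (0.38, 6.66e-04), DNAJB11 (0.26, 0.0251), SEL1L (0.34, 0.0123), SYVN1 (0.49, 8.77e-04), DERL1 (0.47, 5.09e-04) and DERL2 (0.40, 0.0111). With the block 6392, 4661 and 5501 of the 15185 genes passed with control, E2F1 and E2F2 siRNA. Some calls of members depended on single libraries. With control siRNA the calls were lost for HERPUD1 without any 1 of replicates 1 and 2 of either group or replicate 3 with R1881 (adjusted p up to 0.159), DNAJB9 without replicate 1 of either group, replicate 2 with R1881 or replicate 3 with vehicle (up to 0.148), DNAJC3 without replicate 1 or 2 with R1881 or replicate 3 with vehicle (0.0733), HSP90B1 without replicate 1 or 2 with R1881 (0.0968), and PDIA3 without replicate 2 with R1881 (0.0514). With E2F1 siRNA they were lost for EIF2AK3 without any 1 library but replicate 1 with vehicle (up to 0.149), SYVN1 without any 1 but replicate 3 with vehicle (0.128), HSP90B1 without replicate 1 or 2 with R1881 or 2 or 3 with vehicle (0.135), DNAJC10 without replicate 2 with R1881 or 3 with vehicle (0.0677) and P4HB without replicate 2 with vehicle (0.0518). With E2F2 siRNA they were lost for HSPA5 and DNAJC10 without any 1 library but replicate 3 with R1881 (up to 0.119 and 0.121), and for EDEM3 without replicate 1 with R1881 or 3 with vehicle (0.0638).

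E2F1 siRNA in androgen-treated cells raised part of the list above its level with control siRNA. Against control siRNA with R1881, 12 of 34 genes rose and 1, EDEM1, fell, while 4.42% of all genes rose and 4.92% fell. The 12 were HSPA5, CALR, DNAJB9, DNAJC3, MANF, HERPUD1, EDEM2, EDEM3, ERN1, XBP1, CREB3L2 and SEC24D, and the median log2 change was 0.29, against -0.01 over all genes. With vehicle, CREB3L2 and SEC24D rose and EDEM1 fell, while 2.36% of all genes rose and 2.92% fell. With replicates 1 and 2 only 27 members passed with R1881 (26 higher, 1 lower) and 18 with vehicle (14 higher, 4 lower). The 13 and 3 calls all remained. In that setting 4479 and 2876 of the 15185 genes passed. Fewer members passed with R1881 with no filter (7), a 1.5-fold minimum (6) or an adjusted p under 0.01 (5). Of all genes 903, 753 and 714 passed in those settings, against 1418 in the main fit. None passed with vehicle in a fit to the compared groups only, where 13 of all genes passed.

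The block gave 20 calls with R1881 and 8 with vehicle, where 3022 and 1934 of the 15185 genes passed. It added DNAJC10 (0.71, 0.0126), CRELD2 (0.42, 0.00106), PDIA4 (0.19, 0.0272), PDIA6 (0.23, 0.0116), DERL2 (0.68, 4.10e-04), CREB3L4 (0.35, 0.0163) and SEC61B (0.35, 0.00365) with R1881, and DNAJB9 (0.83, 0.00281), DNAJC3 (0.31, 0.0498), PDIA6 (0.22, 0.0245), ERN1 (0.27, 0.0392) and XBP1 (0.24, 0.0195) with vehicle (blocked log2 change, adjusted p). With R1881, 8 of the 13 calls were lost without 1 library. DNAJB9, DNAJC3, MANF and EDEM3 lost theirs without any 1 of the 6 (adjusted p up to 0.158, 0.120, 0.185 and 0.138), and CALR and ERN1 without any 1 but replicate 3 of control siRNA (0.120 and 0.203). EDEM2 lost its call without replicate 2 of either group (0.0786), and EDEM1 without replicate 1 of control or 3 of E2F1 siRNA (0.0747). The number of members called with R1881 was then 6 without replicate 1 or 2 of control siRNA or replicate 2 or 3 of E2F1 siRNA, and 7 without replicate 1 of E2F1 siRNA. With vehicle it was 5 without replicate 3 of control siRNA.

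E2F2 siRNA moved members in both directions. Against control siRNA with R1881, 10 rose and PDIA4 fell, while 15.9% of all genes rose and 14.4% fell. The 10 were DNAJB9, DNAJC3, HERPUD1, EDEM1, EDEM2, DERL2, ERN1, EIF2AK3, PPP1R15A and SEC24D. With vehicle DNAJB9, EIF2AK3 and SEC24D rose and MANF, PDIA4, PDIA6 and XBP1 fell, while 14.2% of all genes rose and 13.1% fell, so 3 and 4 of 34 are near or under the background and say nothing about the list. Median log2 changes were 0.18 with R1881 and 0.00 with vehicle, against 0.03 and 0.02 over all genes. With each treatment the E2F1 and E2F2 comparisons share their control libraries. The summed level of the markers of other cell types was 86.4 to 101 CPM with E2F2 siRNA and vehicle against 42.3 to 64.9 with control siRNA and vehicle, and 55.6 to 62.2 against 43.7 to 47.1 with R1881. Its part in these results was not tested.

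With replicates 1 and 2 only, 23 members passed with R1881 (22 higher, 1 lower) and 20 with vehicle (9 higher, 11 lower). The 11 and 7 calls remained. In that setting 7812 and 6942 of the 15185 genes passed. With vehicle 4 members passed at an adjusted p under 0.01, 3 with a 1.5-fold minimum and 3 in a fit to the compared groups only. There 2500, 2578 and 1774 of the 15185 genes passed, so these counts are near or under the background. The block gave 16 and 18, where 6919 and 6873 of the 15185 genes passed, so both counts are near the background. It added HSPA5 (0.21, 0.0176), CALR (0.22, 0.0101), P4HB (0.23, 0.0257), DERL1 (0.34, 0.00445) and XBP1 (-0.19, 0.0218) with R1881, and DNAJC3 (0.46, 0.00121), HYOU1 (-0.27, 0.00494), CRELD2 (-0.27, 0.0117), EDEM1 (0.23, 0.0202), EDEM2 (0.33, 0.0492), EDEM3 (0.44, 0.0160), DERL1 (0.26, 0.0254), DERL2 (0.40, 0.00950), ERN1 (0.24, 0.0292), PPP1R15A (0.50, 0.0128) and SEC61B (-0.33, 0.00316) with vehicle (blocked log2 change, adjusted p). With R1881 the call was lost for PPP1R15A without any 1 of the 6 libraries (adjusted p up to 0.139), for DERL2 without replicate 1 or 2 of E2F2 siRNA or 3 of control (0.0830) and for DNAJC3 without replicate 2 of E2F2 siRNA or 3 of control (0.0732). With vehicle it was lost for DNAJB9 and MANF without replicate 1 or 2 of E2F2 siRNA or 3 of control (0.104 and 0.155), and for PDIA6 without replicate 2 of control or 3 of E2F2 siRNA (0.0550).

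**Figure D3:**
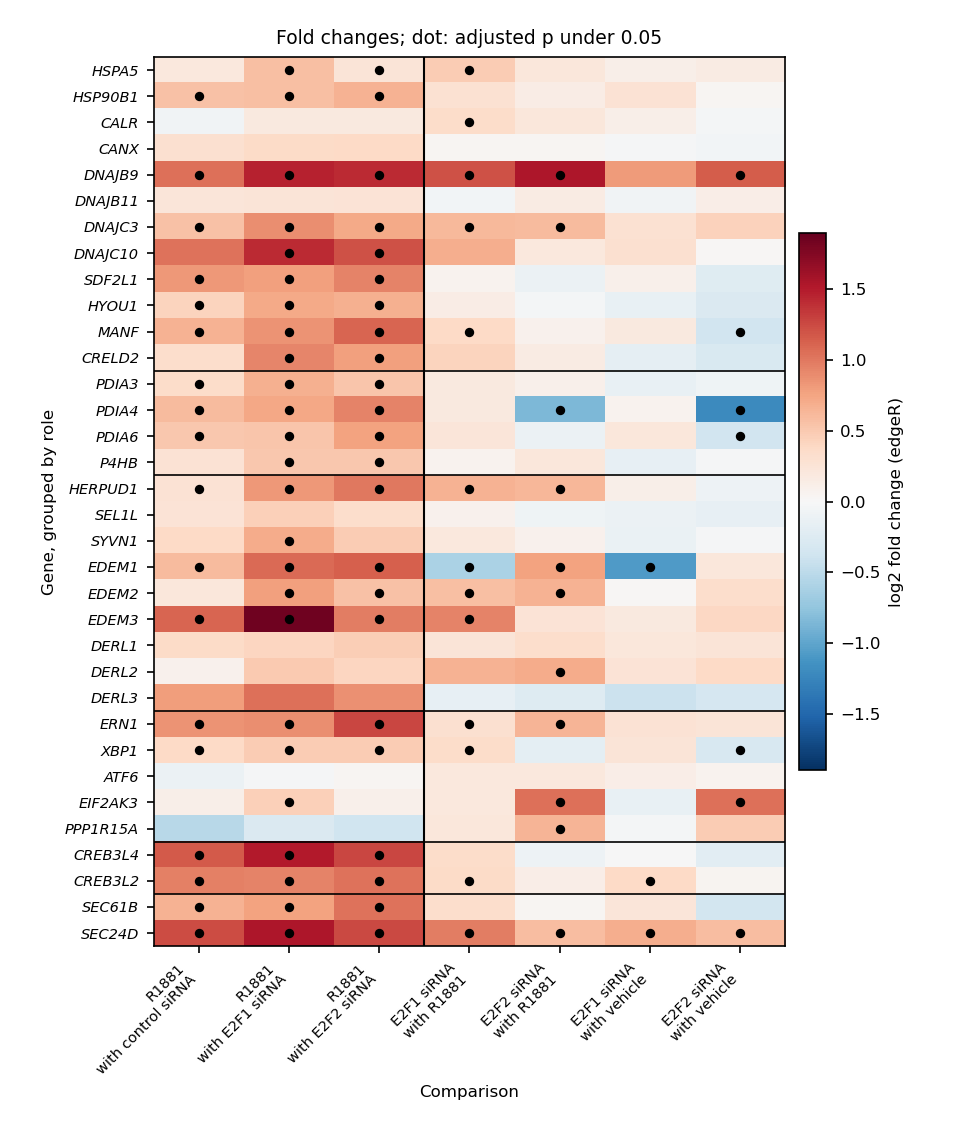
Colour gives the edgeR log2 fold change of each gene (rows, grouped by role) in 7 comparisons (columns); dots mark adjusted p under 0.05. The 3 columns for R1881, left of the thick line, hold 18, 25 and 23 dots, all on red, and SEC24D is the one gene with a dot in all 7 columns.

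Among the 12 lumenal chaperones and co-chaperones, 6, 9 and 9 rose with R1881 with control, E2F1 and E2F2 siRNA. Of all genes 13.8%, 10.1% and 11.8% rose. DNAJB9 (ERdj4) is a J-domain co-chaperone of BiP. It stood at 14.3, 16.3 and 5.40 CPM in replicates 1, 2 and 3 with control siRNA and vehicle, and 30.1, 27.6 and 16.4 CPM with R1881. Under E2F1 siRNA it stood at 24.6, 25.6 and 12.5 CPM with vehicle and 62.7, 62.4 and 46.9 with R1881, and with E2F2 siRNA 27.4, 32.2 and 20.7 and 78.2, 86.1 and 50.2. Replicate 3 was the lowest library of DNAJB9 in every group, and the groups with R1881 lay above those with vehicle in each pool without overlap. The log2 change with R1881 was 1.05 ± 0.37, adjusted p = 0.0441, with control siRNA, and 1.46 ± 0.36 and 1.42 ± 0.36 with E2F1 and E2F2 siRNA. Against control siRNA with R1881, DNAJB9 rose by 1.21 ± 0.35, adjusted p = 0.0426, with E2F1 siRNA and by 1.53 ± 0.36, adjusted p = 0.00398, with E2F2 siRNA. With vehicle its change was 1.16 ± 0.37, adjusted p = 0.0283, with E2F2 siRNA and 0.80 ± 0.37, adjusted p = 0.295, with E2F1 siRNA, the latter past the threshold with the block (0.00281).

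DNAJC3 (p58IPK), an inhibitor of PERK and a lumenal co-chaperone, was called in 5 of the 7 comparisons. Its values were 84.9, 89.9 and 51.7 CPM in replicates 1, 2 and 3 with control siRNA and vehicle, and 116, 116 and 101 CPM with R1881. The E2F1 siRNA libraries held 101, 103 and 74.1 CPM with vehicle and 180.1, 178 and 154 with R1881, and those with E2F2 siRNA 104, 109 and 93.6 and 169, 189 and 147. Replicate 3 was again lowest in each group, and no library with R1881 overlapped the vehicle libraries of its pool. DNAJC3 rose with R1881 with every pool (log2 0.56 ± 0.18, 0.88 ± 0.18 and 0.72 ± 0.18). With R1881 it rose further with E2F1 siRNA (0.62 ± 0.17, adjusted p = 0.0350) and with E2F2 siRNA (0.60 ± 0.17, adjusted p = 0.0161).

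MANF, a secreted protein kept in the ER that stabilises BiP with its clients, rose with R1881 and was lower with E2F2 siRNA and vehicle. MANF stood at 63.9, 59.6 and 75.5 CPM in replicates 1, 2 and 3 with control siRNA and vehicle, and 102, 99.3 and 114 CPM with R1881. In cells given E2F1 siRNA the level was 72.1, 68.8 and 85.6 CPM with vehicle and 134, 135 and 142 with R1881, and in those given E2F2 siRNA 44.4, 51.4 and 59.4 and 109, 115 and 110.3. In MANF replicate 3 was the highest library of 5 groups, unlike DNAJB9 and DNAJC3, and GC content of its exons is 50.9% against 42.1% and 40.3% for those genes. The part of GC content in these values was not tested. The R1881 change was 0.67 ± 0.12 with control, 0.86 ± 0.12 with E2F1 and 1.11 ± 0.12 with E2F2 siRNA. MANF fell by 0.36 ± 0.12 with E2F2 siRNA and vehicle (adjusted p = 0.0318), with no overlap, and rose by 0.38 ± 0.11 with E2F1 siRNA and R1881 (adjusted p = 0.0480).

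HSPA5 itself had log2 changes with R1881 of 0.20 ± 0.08, adjusted p = 0.0688, with control siRNA, 0.57 ± 0.08, adjusted p = 5.66e-05, with E2F1 siRNA and 0.25 ± 0.08, adjusted p = 0.0291, with E2F2 siRNA. It stood at 851, 861 and 870.0 CPM with control siRNA and R1881 and at 1206, 1218 and 1184 with E2F1 siRNA and R1881, a rise of 0.48 ± 0.08, adjusted p = 9.56e-04, without overlap. HSP90B1 rose with every pool (0.56 ± 0.18, 0.58 ± 0.18 and 0.66 ± 0.18), as did the nucleotide exchange factor gene HYOU1 (0.43 ± 0.10, 0.72 ± 0.10 and 0.67 ± 0.10) and SDF2L1, a BiP co-factor (0.82 ± 0.19, 0.78 ± 0.19 and 0.94 ± 0.19). CRELD2 rose with E2F1 and E2F2 siRNA (0.93 ± 0.14 and 0.78 ± 0.14), and its change with control siRNA was 0.34 ± 0.14, adjusted p = 0.0786. DNAJC10, a reductase co-chaperone, likewise rose with E2F1 and E2F2 siRNA (1.42 ± 0.39 and 1.21 ± 0.39), with 1.03 ± 0.39, adjusted p = 0.0640, with control siRNA. The lectin chaperone genes differed: CALR rose with E2F1 siRNA and R1881 against control (0.35 ± 0.09, adjusted p = 0.0239) and was called in no R1881 comparison, and CANX was called in none of the 7 (log2 -0.05 to 0.38). DNAJB11, another BiP co-chaperone, was also not called, with log2 values of -0.06 to 0.26.

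The 4 protein disulfide isomerases, which form and rearrange disulfide bonds, rose with R1881 in 3, 4 and 4 cases with control, E2F1 and E2F2 siRNA. The shares of all genes that rose were 13.8%, 10.1% and 11.8%. PDIA4 (ERp72) was lower with E2F2 siRNA than with either other pool. Its values were 263, 243 and 299.6 CPM in replicates 1, 2 and 3 with control siRNA and vehicle, and 384, 398 and 439 CPM with R1881. Under E2F1 siRNA it stood at 275, 258 and 308 CPM with vehicle and 454, 459 and 482 with R1881, and with E2F2 siRNA 115, 109 and 126 and 229, 221 and 226. Every library with E2F2 siRNA lay below every library with control or E2F1 siRNA at the same treatment, and the vehicle and R1881 groups did not overlap within a pool. PDIA4 fell with E2F2 siRNA by 0.85 ± 0.09 with R1881 (adjusted p = 3.44e-06) and by 1.20 ± 0.09 with vehicle (adjusted p = 1.37e-07) on the log2 scale. With E2F1 siRNA the values were 0.19 ± 0.09, adjusted p = 0.233, with R1881 and 0.06 ± 0.09, adjusted p = 0.844, with vehicle. The E2F pools differed directly by 1.05 ± 0.09 with R1881 and 1.26 ± 0.09 with vehicle (E2F1 minus E2F2 siRNA, adjusted p = 8.35e-07 and 6.31e-08). R1881 raised PDIA4 with E2F2 siRNA, by 0.95 ± 0.09, adjusted p = 1.09e-06.

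PDIA6, an isomerase that also binds IRE1, was lower with E2F2 siRNA and vehicle. It stood at 232, 239 and 193 CPM in replicates 1, 2 and 3 with control siRNA and vehicle, and 322, 322 and 304 CPM with R1881. The E2F1 siRNA libraries held 271, 269 and 232 CPM with vehicle and 386, 372 and 354 with R1881, and those with E2F2 siRNA 176, 179 and 162 and 322, 302 and 252. The 3 vehicle libraries with E2F2 siRNA lay below all 3 with control siRNA, a fall of 0.36 ± 0.10 (adjusted p = 0.0138), and with R1881 the groups overlapped (-0.12 ± 0.10, adjusted p = 0.424). R1881 raised PDIA6 with each pool (0.51 ± 0.10, 0.53 ± 0.10 and 0.76 ± 0.10). PDIA3 (ERp57), which works with the lectin chaperones, rose with each pool (0.34 ± 0.10, 0.67 ± 0.10 and 0.52 ± 0.10), and P4HB, the founding isomerase, with E2F1 and E2F2 siRNA (0.51 ± 0.13 and 0.51 ± 0.13). Neither was called in a comparison of an E2F pool with control siRNA.

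Of 9 genes of ER-associated degradation, 3, 5 and 4 rose with R1881 with control, E2F1 and E2F2 siRNA. The background was 13.8%, 10.1% and 11.8% of all genes. EDEM1, a lectin that takes misfolded glycoproteins to degradation, moved in opposite directions with the E2F pools under R1881. EDEM1 stood at 111, 112 and 78.6 CPM in replicates 1, 2 and 3 with control siRNA and vehicle, and 158, 157 and 141 CPM with R1881. In cells given E2F1 siRNA the level was 50.5, 50.9 and 41.9 CPM with vehicle and 112, 102 and 87.7 with R1881, and in those given E2F2 siRNA 117, 125 and 108 and 267, 286 and 219. With vehicle all 3 libraries with E2F1 siRNA lay below all with control siRNA, and with R1881 all 3 with E2F2 siRNA lay above and all 3 with E2F1 siRNA below control. EDEM1 fell with E2F1 siRNA by 1.08 ± 0.14 with vehicle (adjusted p = 2.81e-04) and 0.59 ± 0.14 with R1881 (adjusted p = 0.0135). With E2F2 siRNA it rose with R1881 (0.76 ± 0.14, adjusted p = 7.01e-04), and its value with vehicle was 0.21 ± 0.14, adjusted p = 0.284. The direct difference between the pools (E2F1 minus E2F2 siRNA) was -1.35 ± 0.14 with R1881 and -1.29 ± 0.14 with vehicle (adjusted p = 5.25e-06 and 5.59e-06). R1881 raised EDEM1 with each pool, by 0.59 ± 0.14, 1.08 ± 0.14 and 1.14 ± 0.14.

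Its relatives EDEM2 and EDEM3, mannose-trimming genes of the same family, rose with E2F1 siRNA and R1881. EDEM3 values were 73.1, 72.3 and 34.4 CPM in replicates 1, 2 and 3 with control siRNA and vehicle, and 138, 143 and 105 CPM with R1881. Under E2F1 siRNA it stood at 75.7, 86.3 and 43.5 CPM with vehicle and 271, 253 and 214 with R1881, and with E2F2 siRNA 82.3, 86.3 and 66.3 and 177, 161 and 124. No library with R1881 overlapped the vehicle libraries of its pool, and the 3 with E2F1 siRNA and R1881 were the highest of the 18. EDEM3 rose with R1881 by 1.10 ± 0.27, 1.84 ± 0.27 and 0.98 ± 0.27 with control, E2F1 and E2F2 siRNA, and with E2F1 siRNA under R1881 against control by 0.94 ± 0.27, adjusted p = 0.0377. EDEM2 was scarcer, at 15.0, 15.1 and 17.6 CPM in replicates 1, 2 and 3 with control siRNA and vehicle, and 21.0, 16.3 and 18.3 CPM with R1881. The E2F1 siRNA libraries held 16.3, 13.3 and 18.5 CPM with vehicle and 25.3, 29.3 and 28.0 with R1881, and those with E2F2 siRNA 20.2, 18.2 and 21.4 and 30.3, 31.8 and 26.0. With R1881 both E2F pools lay above control siRNA without overlap (0.57 ± 0.14, adjusted p = 0.0135, with E2F1 siRNA and 0.66 ± 0.14, adjusted p = 0.00148, with E2F2 siRNA), while R1881 with control siRNA gave 0.22 ± 0.14, adjusted p = 0.262.

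HERPUD1, which helps to assemble the degradation complex of the ER membrane, showed a larger R1881 response with E2F2 than with control siRNA. It stood at 94.5, 93.8 and 119 CPM in replicates 1, 2 and 3 with control siRNA and vehicle, and 118, 129 and 124 CPM with R1881. In cells given E2F1 siRNA the level was 109.9, 105 and 116 CPM with vehicle and 184, 198 and 207 with R1881, and in those given E2F2 siRNA 90.5, 97.7 and 98.8 and 190.4, 204 and 183. With control siRNA the vehicle and R1881 groups overlapped, since replicate 3 with vehicle lay above replicate 1 with R1881, whereas with either E2F pool they did not overlap. R1881 changed HERPUD1 by 0.27 ± 0.09, adjusted p = 0.0394, with control siRNA, by 0.83 ± 0.09, adjusted p = 6.36e-06, with E2F1 siRNA and by 1.01 ± 0.09, adjusted p = 8.04e-07, with E2F2 siRNA. With R1881 it was higher with E2F1 siRNA (0.67 ± 0.09, adjusted p = 2.65e-04) and with E2F2 siRNA (0.64 ± 0.09, adjusted p = 8.26e-05), and with vehicle neither pool passed (0.11 ± 0.09 and -0.10 ± 0.09).

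DERL2, a derlin of the channel through which proteins leave the ER, rose with E2F2 siRNA and R1881 (0.70 ± 0.21, adjusted p = 0.0170), and its value with E2F1 siRNA and R1881 was 0.66 ± 0.21, adjusted p = 0.0550. The ubiquitin ligase gene SYVN1 (HRD1) rose with R1881 with E2F1 siRNA (0.71 ± 0.22, adjusted p = 0.0310), with 0.38 ± 0.22 and 0.48 ± 0.22 with the other pools. Its partner SEL1L and the derlins DERL1 and DERL3 were called in none of the 7 comparisons. Their log2 values with R1881 were 0.26 to 0.45 for SEL1L, 0.37 to 0.46 for DERL1 and 0.79 to 1.05 for DERL3, which had at most 1.02 CPM in any library.

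The 3 stress sensors differed in which comparisons called them. ERN1 (IRE1) rose with R1881 with each pool. Its values were 35.5, 40.0 and 44.1 CPM in replicates 1, 2 and 3 with control siRNA and vehicle, and 70.2, 67.3 and 79.5 CPM with R1881. Under E2F1 siRNA it stood at 47.7, 47.9 and 49.1 CPM with vehicle and 94.1, 84.9 and 87.7 with R1881, and with E2F2 siRNA 46.0, 46.1 and 48.9 and 116, 118 and 107. Within each pool the R1881 libraries lay above the vehicle libraries, and with R1881 the order was control, E2F1 and E2F2 siRNA, with no overlap between neighbours. The log2 changes with R1881 were 0.86 ± 0.09, 0.88 ± 0.09 and 1.27 ± 0.09 with control, E2F1 and E2F2 siRNA. Against control siRNA with R1881, ERN1 rose by 0.30 ± 0.09, adjusted p = 0.0480, with E2F1 siRNA and by 0.65 ± 0.09, adjusted p = 4.91e-05, with E2F2 siRNA.

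EIF2AK3 (PERK) rose with E2F2 siRNA. It stood at 55.6, 58.6 and 36.4 CPM with control siRNA and vehicle and 104, 111 and 96.6 with E2F2 siRNA and vehicle. With R1881 the values were 57.2, 53.3 and 51.4 with control and 115, 119 and 99.9 with E2F2 siRNA. The E2F2 siRNA libraries did not overlap control with either treatment, and the rise was 1.04 ± 0.15, adjusted p = 5.63e-05, with R1881 and 1.05 ± 0.15, adjusted p = 6.10e-05, with vehicle. With E2F1 siRNA the values were 0.21 ± 0.15 and -0.14 ± 0.15, and R1881 raised EIF2AK3 with E2F1 siRNA alone among the pools (0.45 ± 0.15, adjusted p = 0.0382), a difference between pools that did not pass for E2F1 against control siRNA (0.35 ± 0.21, adjusted p = 0.659). ATF6 was called in no comparison, with log2 values of -0.11 to 0.21 in the 7.

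XBP1, the factor made by the IRE1 branch, moved by small amounts with little spread. It stood at 120.4, 122 and 118 CPM in replicates 1, 2 and 3 with control siRNA and vehicle, and 152, 157 and 155 CPM with R1881. The E2F1 siRNA libraries held 143, 137 and 144 CPM with vehicle and 194, 197 and 199 with R1881, and those with E2F2 siRNA 94.3, 104 and 94.0 and 141, 144 and 122. The 6 groups of XBP1 separated by pool at each treatment, with E2F2 siRNA lowest and E2F1 siRNA highest, and no overlap between pools. R1881 raised it with each pool (0.37 ± 0.07, 0.48 ± 0.07 and 0.48 ± 0.07). XBP1 rose with E2F1 siRNA and R1881 (0.34 ± 0.07, adjusted p = 0.00530), and with vehicle the value was 0.24 ± 0.07, adjusted p = 0.0674. It fell with E2F2 siRNA and vehicle by 0.30 ± 0.07 (adjusted p = 0.00515), and with R1881 the value was -0.19 ± 0.07, adjusted p = 0.0555. PPP1R15A (GADD34), a regulatory subunit of the phosphatase that acts against PERK, was the member with the lowest R1881 values, -0.53, -0.28 and -0.37, none called, and it rose with E2F2 siRNA and R1881 (0.65 ± 0.23, adjusted p = 0.0430).

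Both CREB3L factors, membrane-bound transcription factors of the ER related to ATF6, rose with R1881 with every pool. CREB3L4 stood at 50.96, 57.3 and 68.9 CPM in replicates 1, 2 and 3 with control siRNA and vehicle, and 130.3, 126 and 139.8 CPM with R1881. In cells given E2F1 siRNA the level was 58.7, 53.3 and 64.9 CPM with vehicle and 173, 156 and 174 with R1881, and in those given E2F2 siRNA 51.1, 50.6 and 52.0 and 124, 135 and 110.1. Its R1881 libraries lay above its vehicle libraries in each pool, by log2 1.16 ± 0.11, 1.51 ± 0.11 and 1.26 ± 0.11 (adjusted p = 1.13e-06, 6.46e-08 and 4.55e-07). Neither E2F pool gave a call against control siRNA, and the value with E2F1 siRNA and R1881 was 0.35 ± 0.11, adjusted p = 0.0586. CREB3L2 stood at 55.1, 56.0 and 55.8 CPM in replicates 1, 2 and 3 with control siRNA and vehicle, and 105, 109 and 109 CPM with R1881. Under E2F1 siRNA it stood at 68.3, 75.2 and 73.6 CPM with vehicle and 133, 147 and 139 with R1881, and with E2F2 siRNA 62.7, 53.8 and 56.8 and 121, 119 and 115. Replicates of CREB3L2 lay close together, and its R1881 changes were 0.96 ± 0.07, 0.95 ± 0.07 and 1.03 ± 0.07. E2F1 siRNA raised CREB3L2 with R1881 (0.37 ± 0.07, adjusted p = 0.00380) and with vehicle (0.38 ± 0.07, adjusted p = 0.00593), without overlap in either.

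SEC24D, a cargo-binding subunit of the COPII coat, was called in all 7 comparisons. Its values were 30.2, 31.0 and 29.8 CPM in replicates 1, 2 and 3 with control siRNA and vehicle, and 66.3, 71.3 and 78.1 CPM with R1881. The E2F1 siRNA libraries held 49.95, 47.7 and 48.6 CPM with vehicle and 141, 143 and 138 with R1881, and those with E2F2 siRNA 42.8, 47.2 and 46.2 and 109, 117 and 98.6. Each pool with R1881 lay above its vehicle libraries, and both E2F pools lay above control siRNA at each treatment, with no overlap. R1881 raised SEC24D by 1.24 ± 0.08, 1.53 ± 0.08 and 1.26 ± 0.08 with control, E2F1 and E2F2 siRNA. E2F1 siRNA raised it by 0.97 ± 0.08, adjusted p = 3.93e-06, with R1881 and 0.68 ± 0.08, adjusted p = 1.17e-04, with vehicle, and E2F2 siRNA by 0.59 ± 0.08, adjusted p = 4.67e-05, with R1881 and 0.58 ± 0.08, adjusted p = 7.83e-05, with vehicle. SEC61B, a subunit of the translocation channel, rose with R1881 with each pool (0.66 ± 0.16, 0.77 ± 0.16 and 1.03 ± 0.16) and was called in no comparison with control siRNA.

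**Figure D4:**
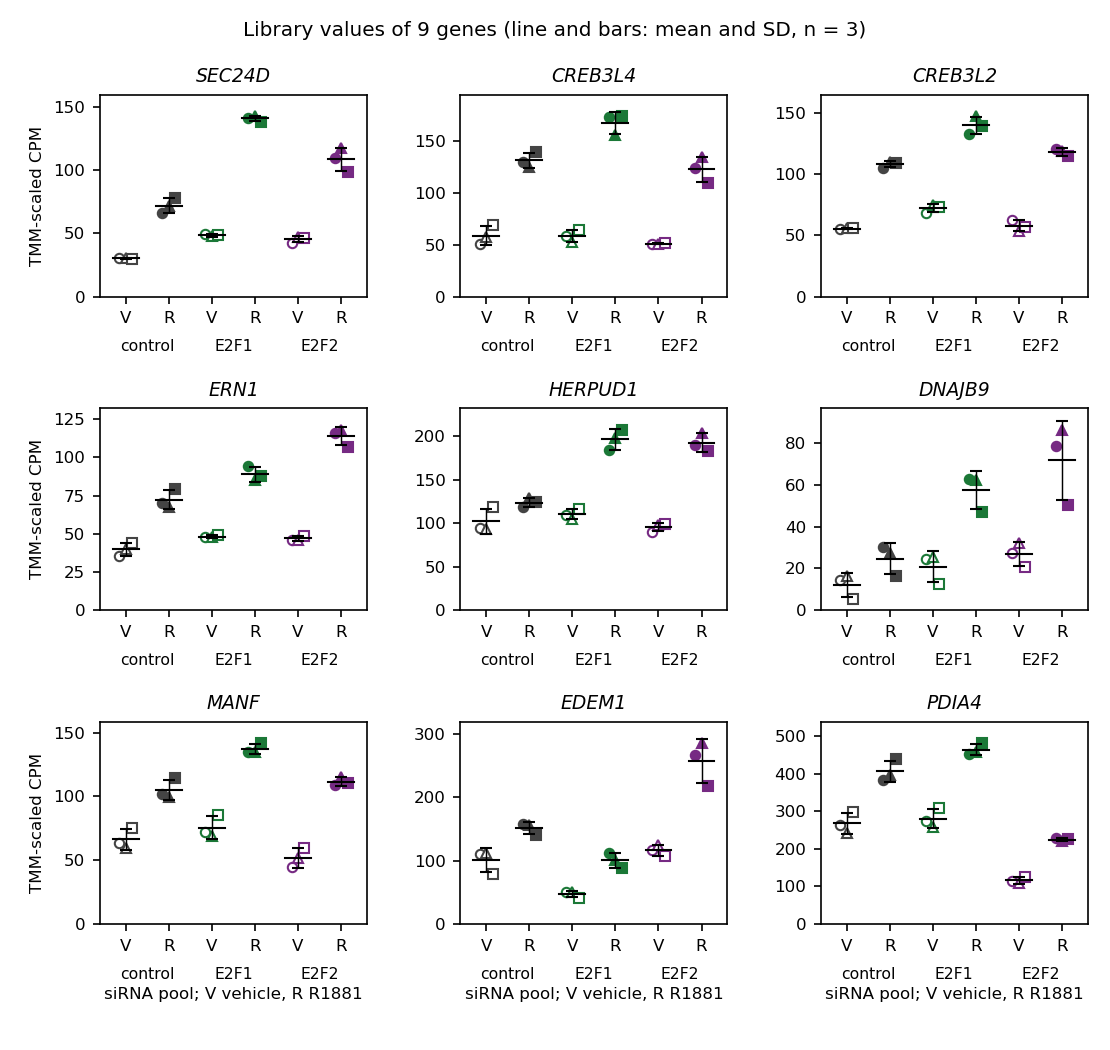
TMM-scaled CPM of 9 genes in each of the 18 libraries (circles, triangles and squares are replicates 1, 2 and 3; open with vehicle V, filled with R1881 R), with the mean and SD of each group of 3 and axes from 0. SEC24D is higher in every E2F siRNA library than in control at the same treatment, EDEM1 is lowest with E2F1 siRNA, and PDIA4 is lowest with E2F2 siRNA.

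The E2F pools were also compared with each other. With R1881, 7 members were higher with E2F1 than with E2F2 siRNA and 3 lower, while 11.0% of all genes were higher and 13.1% lower. The 7 were HSPA5, PDIA4, PDIA6, XBP1, CREB3L4, CREB3L2 and SEC24D, by 0.24 to 1.05 on the log2 scale, and the 3 were EDEM1, EIF2AK3 and ERN1, by -1.35, -0.84 and -0.35. With vehicle, MANF, PDIA4, PDIA6, XBP1, CREB3L2 and SEC61B were higher (0.33 to 1.26) and EDEM1 and EIF2AK3 lower (-1.29 and -1.19), while 14.4% of all genes were higher and 16.1% lower. The counts were 20 (14 higher, 6 lower) and 16 (11 higher, 5 lower) with replicates 1 and 2 only, and all 10 and 8 calls remained. A 1.5-fold minimum left 3 and 3 members, where 2212 and 2963 of the 15185 genes passed, so these counts are under the background. Of the 15185 genes tested, 6796 and 7658 passed with replicates 1 and 2 only, and 5848 and 6907 with the block. The vehicle counts of members, 16 and 11, are near or under that background. The block gave 16 with R1881, adding DNAJC10 (0.52, 0.0386), MANF (0.29, 0.00779), CRELD2 (0.26, 0.0134), EDEM3 (0.69, 5.63e-04), PPP1R15A (-0.43, 0.0430) and SEC61B (0.32, 0.00329), and 11 with vehicle, adding DNAJB9 (-0.39, 0.04996), HERPUD1 (0.21, 0.0408) and PPP1R15A (-0.53, 0.00997). Calls with R1881 were lost for CREB3L2 without replicate 2 or 3 of either pool (adjusted p up to 0.108), and for PDIA6 and HSPA5 without replicate 2 of E2F1 or 3 of E2F2 siRNA (0.0976 and 0.0845). With vehicle the call of SEC61B was lost without replicate 1 of E2F1 siRNA (0.0622).

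Whether the R1881 response itself differed between pools was tested as a difference of differences. For E2F1 against control siRNA no member passed, where 0.375% of all genes passed upward and 0.310% downward. At an unadjusted p under 0.05 there were 8 members for E2F1 siRNA and 6 for E2F2 siRNA, all with the larger response under the E2F pool. The share of all genes at that threshold was not counted, so these 2 counts have no background beside them. For E2F2 against control siRNA HERPUD1 passed, with a response larger by 0.74 ± 0.13, adjusted p = 0.0137, where 0.560% of all genes passed upward and 0.329% downward. The same difference for E2F1 siRNA was 0.56 ± 0.13, adjusted p = 0.0641. With the block 5 members passed for E2F1 siRNA (HSPA5 (0.36, 0.0350), CRELD2 (0.59, 0.00717), HERPUD1 (0.55, 0.00904), EDEM1 (0.47, 0.0182) and EDEM3 (0.74, 0.0328)), and 5 for E2F2 siRNA, HERPUD1 and MANF (0.45, 0.0357), CRELD2 (0.43, 0.0417), PDIA4 (0.35, 0.0261) and EDEM1 (0.52, 0.00902) (blocked log2 difference, adjusted p). With replicates 1 and 2 only 17 and 20 members passed. Of the 15185 genes tested, 696 and 658 passed with the block, and 1840 and 1777 with replicates 1 and 2 only. For E2F1 siRNA 1 member passed with DESeq2 and 0 with limma-voom, where 335 and 132 of all genes passed. The HERPUD1 call was lost without replicate 1 of control siRNA with R1881, replicate 1 of E2F2 siRNA with vehicle or replicate 2 of E2F2 siRNA with R1881 (adjusted p up to 0.0580), and also with no filter, at an adjusted p under 0.01 and in a fit to the compared groups only. Without replicate 3 of control siRNA with vehicle, 3 members passed for E2F1 siRNA.

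**Figure D5:**
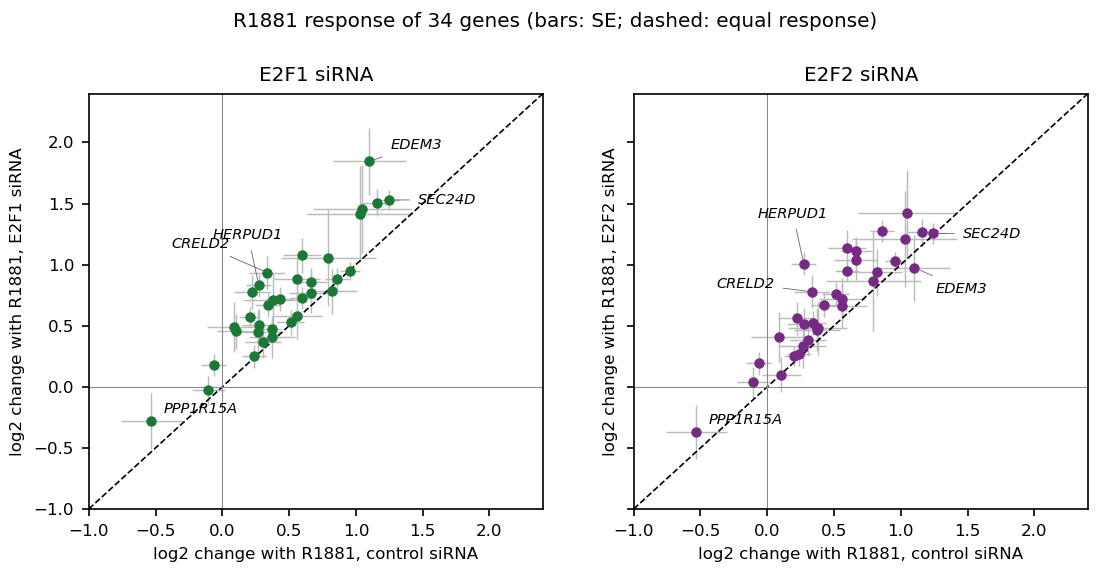
The log2 change with R1881 of each of the 34 genes with E2F1 siRNA (left, green) or E2F2 siRNA (right, purple) against that with control siRNA, with SE bars; points above the dashed line responded more with the E2F pool. Both panels share the control values, and HERPUD1 (0.27 with control, 1.01 with E2F2 siRNA) is the one gene whose difference passed in the fit without a replicate block. With the block 5 passed for each E2F pool (696 and 658 of all 15185 genes). With replicates 1 and 2 only 17 and 20 passed (1840 and 1777 of all genes).

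The 10 genes with an ERSE or ERSE-II and the 20 without one in the window were set side by side, as a description. With R1881, 6, 8 and 8 of the 10 rose with control, E2F1 and E2F2 siRNA, and 10, 15 and 13 of the 20. Among all genes 13.8%, 10.1% and 11.8% rose. Median log2 changes were 0.35, 0.57 and 0.67 with an element and 0.58, 0.77 and 0.83 without. With E2F2 siRNA and vehicle, 2 of the 10 fell (PDIA6 and XBP1) and none rose, with a median of -0.16, while 2 of the 20 rose and 2 fell, with a median of 0.10. There 14.2% of all genes rose and 13.1% fell, so these counts are near the background and say nothing about the elements. The R1881 medians were thus lower with an element than without, a difference that was not tested.

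Other genes of the secretory pathway were counted from 6 lists, 150 of whose 152 genes were tested. Among 23 of the COPII coat, cargo export and KDEL receptors, 9, 18 and 16 rose with R1881 with control, E2F1 and E2F2 siRNA and none fell, with medians of 0.36, 0.53 and 0.52, where 13.8%, 10.1% and 11.8% of all genes rose. With control siRNA these included KDELR2 (0.79 ± 0.09) and KDELR3 (0.93 ± 0.15), receptors that return ER proteins from the Golgi, and TMED9, a cargo receptor (0.62 ± 0.12). Against control siRNA with R1881, 9 of the 23 rose with E2F1 siRNA (4.42% of all genes) and 10 with E2F2 siRNA (15.9% of all genes), and none fell. With vehicle 2 rose with E2F1 siRNA, and 6 rose and 1 fell with E2F2 siRNA, against 2.36%, 14.2% and 13.1% of all genes. With R1881, SEC31A, of the outer COPII coat, rose by 0.63 ± 0.07 with E2F1 siRNA and 0.52 ± 0.07 with E2F2 siRNA. MIA3 (TANGO1), which loads bulky cargo, rose there by 0.64 ± 0.09 and 0.80 ± 0.09. Of 29 further folding and redox genes, 12 rose and 2 fell with R1881 and control siRNA, with the disulfide isomerase gene PDIA5 at 1.51 ± 0.11 and the isomerase gene FKBP9 at -0.70 ± 0.08. FICD, an enzyme that modifies BiP, rose with R1881 against control by 0.87 ± 0.11 with E2F1 and 0.89 ± 0.11 with E2F2 siRNA.

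The all-gene shares for R1881 with control siRNA, 13.8% higher and 13.2% lower, are the background of the next counts. There 9 of 23 N-glycosylation genes rose and none fell, among them STT3A, a catalytic subunit of oligosaccharyltransferase (0.60 ± 0.06). Of 27 other degradation genes 5 rose and 1 fell, a share of rises near the background, with UBE2J1, a ubiquitin-conjugating enzyme of the ER membrane, at 1.17 ± 0.16, and of 23 translocation genes 9 rose and 1, SRP14, fell (-0.41 ± 0.07). Of 25 other genes of stress signalling 6 rose and 4 fell, with a median of 0.05. DDIT3 (CHOP) and CHAC1, which the PERK branch induces, fell (-0.71 ± 0.13 and -1.33 ± 0.28), and PPP1R15B, the constitutive counterpart of PPP1R15A, rose (0.52 ± 0.09). With E2F2 siRNA ATF3, another stress-induced factor, rose with R1881 (1.17 ± 0.09) and with vehicle (1.35 ± 0.09), STC2 fell with both (-0.86 ± 0.09 and -0.57 ± 0.09), and of the 25 genes 6 rose and 4 fell with R1881 (15.9% and 14.4% of all genes) and 4 rose and 3 fell with vehicle (14.2% and 13.1%), so the falls and the vehicle counts are near the background. These lists were written from textbook knowledge with earlier results of the data known, so they are counts and not independent evidence.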

How the data were processed

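Gene counts of 18 RNA libraries were analysed. Exons were captured in library preparation, per the labels' protocols. Per the submitters' processing notes, tools included CASAVA 1.8.2, featureCounts from Subread 1.6.4, Picard 1.97 and TopHat2 2.0.13 on GRCh38; strand setting, multi-mapped reads and annotation release are not given in the sources used here, so genes that overlap others or have near-identical copies are uncertain. The deposited values are whole-number counts per gene, with no normalization by the authors. Treatment began 42 h after transfection per the design text and 48 h per the protocol. The replicates are called biological, with nothing on what separated them, so p-values measure only the spread between these samples, which may be technical.

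Counts were filtered by filterByExpr of edgeR 4.0.16 in R 4.3.3 (minimum count 10, minimum total 15), which left 15185 genes, and scaled by TMM (factors 0.959 to 1.04). One quasi-likelihood model of 6 group means was fitted to the 18 libraries, 11 comparisons were taken from it, and Benjamini-Hochberg adjustment ran over all genes tested. Genes under 0.05 were called. The SE was computed as the absolute log2 change over the root of F. Across genes the biological coefficient of variation was 0.167. Positions and exon length came from GENCODE 29.

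The members and lists were chosen with earlier results of these data known. Members called in at least 3 of 7 comparisons, at most 14, are given by library, the others by value where called and otherwise in ranges; of each other list at most 3 called genes a comparison are named. Libraries with the same replicate number deviated together: every such pair exceeded r = 0.1 in all 11 comparisons (lowest r 0.136), and 11 of 18 libraries correlated best with their own number. Replicate 3 deviated with GC content in every group, and such a shared shift can also give these correlations. The check therefore cannot decide whether the numbers pair samples, which the labels do not say. The main fit used no pairing. The block is an alternative beside RLE scaling, no filter, a filter on CPM under 1 (3 libraries), limma-voom (limma 3.58.1), DESeq2 1.42.0, the compared groups only, replicates 1 and 2 only, stricter thresholds and leaving out each library.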

Additional observations from a re-analysis of the deposited data

Results flagged for a closer look

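The R1881 response of HERPUD1 was larger with E2F2 than with control siRNA by 0.74 ± 0.13 on the log2 scale (edgeR adjusted p = 0.0137), the one member whose difference in response passed in the fit without a replicate block. With the block 5 members passed for E2F1 siRNA and 5 for E2F2 siRNA, where 696 and 658 of the 15185 genes passed. The HERPUD1 call was lost without replicate 1 of control siRNA with R1881, replicate 1 of E2F2 siRNA with vehicle or replicate 2 of E2F2 siRNA with R1881 (adjusted p up to 0.0580), with no filter, at an adjusted p under 0.01 and in a fit to the compared groups only.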

How the results depend on the processing

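The counts of members called with R1881 with E2F1 and E2F2 siRNA stayed within 1.5 times their value under all 10 alternatives (19 to 31 and 18 to 30). Others moved. With the replicate block the counts were 28 for R1881 with control siRNA, 20 for E2F1 siRNA with R1881, 8 for E2F1 and 18 for E2F2 siRNA with vehicle, 16 for E2F1 against E2F2 siRNA with R1881, and 5 and 5 for the differences in response with E2F1 and E2F2 siRNA. The block gained the calls given beside the results and changed no other call. With replicates 1 and 2 only they were, for E2F1 and E2F2 siRNA, 27 and 23 with R1881, 18 and 20 with vehicle, and 17 and 20 for the differences in response, and 20 and 16 for E2F1 against E2F2 siRNA with R1881 and vehicle. Both settings also called more of all genes in each comparison, as given beside the results. Under an adjusted p of 0.01, E2F1 siRNA with R1881 gave 5, E2F2 siRNA with vehicle 4 and its difference in response 0. With a 1.5-fold minimum the counts were 11 for R1881 with control siRNA, 6 for E2F1 siRNA with R1881, 3 for E2F2 siRNA with vehicle, and 3 and 3 for E2F1 against E2F2 siRNA. With no filter E2F1 siRNA with R1881 gave 7 and the E2F2 difference in response 0. DESeq2 gave 1 for the E2F1 difference in response. A fit to the groups compared only gave 8 for R1881 with control siRNA, 0 for E2F1 and 3 for E2F2 siRNA with vehicle, and 0 for the E2F2 difference in response. Where the stricter thresholds, no filter or the compared groups only lowered a count named here, fewer of all genes passed too. With DESeq2 more of all genes passed. The cause was not tested.

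Leaving out each library gave 13 to 20 calls for R1881 with control siRNA, 21 to 24 with E2F1 and 20 to 24 with E2F2 siRNA. For E2F1 siRNA the range was 6 to 9 with R1881 and 3 to 5 with vehicle, and for E2F2 siRNA 8 to 11 and 5 to 9. It was 7 to 10 and 7 to 9 for E2F1 against E2F2 siRNA with R1881 and vehicle, and 0 to 3 and 0 to 1 for the differences in response with E2F1 and E2F2 siRNA. Of 6381 values of single members under an alternative, 5895 kept direction and side of the threshold, 223 fell out of it, 261 came into it and 2 reversed. Those 2, with replicates 1 and 2 only in E2F2 siRNA with vehicle, were HSP90B1 (log2 -0.190, adjusted p = 0.00205) and DNAJC10 (-0.235, adjusted p = 0.00727). The filter on CPM left no value for DERL3. Depth limits DERL3 and PPP1R15A, at 138 and 1177 counts over 18 libraries.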
